A study of Mus musculus with 6 samples.

Results

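The 10 genes described here make up the core of the Nrf2 response and the making and recycling of glutathione: Nfe2l2, Keap1, Nqo1, Hmox1, Gclc, Gclm, Srxn1, Slc7a11, G6pdx and Gsr. They were listed by name, and each was found once among the 49315 genes of the count tables after gene identifiers were matched to the GENCODE mouse annotation. The study asked how loss of ING4, a chromatin reader of the inhibitor of growth family, changes blood stem and progenitor cells. Bulk RNA-seq was performed on long-term hematopoietic stem cells (LT-HSCs), short-term hematopoietic stem cells (ST-HSCs) and multipotent progenitors (MPPs), with 1 library for each population of each genotype and 6 in all. WT mice were C57BL/6, the strain background of the ING4-/- mice is not given in the sources used here, and both carried the CD45.2 allele. Marrow was pooled from several mice of a genotype and depleted of lineage-positive cells before sorting. LT-HSCs were sorted as Lin- Sca-1+ c-Kit+ (LSK) cells that were CD48-, CD34- and CD150+, ST-HSCs as LSK cells that were CD48-, CD34+ and CD150+, and MPPs as LSK cells that were CD48-, CD34+ and CD150-. The populations stand in for replicates of a genotype, so a p-value for genotype alone measures the spread among these 3 populations. Where population is also in the model, it measures the spread left after genotype and population. No p-value says anything of the spread among mice.

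Nrf2, the protein made from Nfe2l2, is a transcription factor held at a low level in unstressed cells by Keap1, which presents it for ubiquitination and breakdown. When oxidants or electrophiles modify Keap1, Nrf2 accumulates, pairs with a small Maf protein and binds antioxidant response elements near genes that detoxify, that make glutathione and that supply NADPH. Blood stem cells are kept at low levels of reactive oxygen species, and this system is among those that limit them. Most control of Nrf2 acts on the protein, so the level of Nfe2l2 RNA is not a measure of Nrf2 activity.

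Promoter sequence was taken from RefSeq for the mouse build GRCm38.p6, in which 7 of the 10 genes matched an entry, and Hmox1, Gclc and Gsr did not. The 250 bases before the RefSeq start were searched on both strands for the core of the antioxidant response element, TGACNNNGC, and for the related AP-1 site TGANTCA, where N is any base. These motifs can overlap in a longer element, and a position that fits both would count for each. The core occurred in 10.2% of 32851 promoters of this length and the AP-1 site in 6.75%, so a match is a description and not evidence of binding. The 4 promoters with a match are shown because they belong to the regulator itself and to 3 genes of the pathway with different behaviour below, with the matched letters in capitals. Nfe2l2 lies on the minus strand at chr2:75704664-75704913, Gclm on the plus strand at chr3:122245307-122245556, Srxn1 on the plus strand at chr2:152105274-152105523 and G6pdx on the minus strand at chrX:74428881-74429130.
Nfe2l2: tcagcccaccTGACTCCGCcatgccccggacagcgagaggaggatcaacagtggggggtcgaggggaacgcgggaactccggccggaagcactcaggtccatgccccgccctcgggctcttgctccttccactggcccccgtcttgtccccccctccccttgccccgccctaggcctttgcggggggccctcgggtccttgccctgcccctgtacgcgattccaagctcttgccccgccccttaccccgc
Gclm: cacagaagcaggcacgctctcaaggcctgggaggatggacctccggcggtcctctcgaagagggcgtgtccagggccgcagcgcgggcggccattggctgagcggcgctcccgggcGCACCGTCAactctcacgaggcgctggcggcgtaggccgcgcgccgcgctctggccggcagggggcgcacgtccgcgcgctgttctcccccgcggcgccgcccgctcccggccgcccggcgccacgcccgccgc
Srxn1: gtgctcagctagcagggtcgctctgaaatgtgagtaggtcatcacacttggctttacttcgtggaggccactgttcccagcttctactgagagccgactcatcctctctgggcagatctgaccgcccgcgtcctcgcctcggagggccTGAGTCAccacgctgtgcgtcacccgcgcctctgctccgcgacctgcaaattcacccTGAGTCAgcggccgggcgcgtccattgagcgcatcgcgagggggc
G6pdx: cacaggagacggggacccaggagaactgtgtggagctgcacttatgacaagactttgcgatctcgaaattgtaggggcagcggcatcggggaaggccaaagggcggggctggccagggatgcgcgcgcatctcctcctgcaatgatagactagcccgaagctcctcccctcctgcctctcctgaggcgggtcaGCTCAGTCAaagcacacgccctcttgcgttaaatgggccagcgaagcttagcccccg

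Read 5′ to 3′ on the strand of the gene, Nfe2l2, Gclm and G6pdx each held the core at 1 position, in Gclm and G6pdx on the opposite strand. Srxn1 held the AP-1 site at 2 positions, the nearer of them starting 45 bases before the RefSeq start. Keap1, Nqo1 and Slc7a11 held neither motif in this window.

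Before the genes are compared, the libraries themselves have to be described. The 3 WT libraries held 7839326 to 9363442 counts and the 3 ING4-/- libraries 35596876 to 39192588, yet a count was found for 36082 to 41763 genes in WT and for 14680 to 16188 in ING4-/-. Over 1427 olfactory and vomeronasal receptor genes, which blood cells are not known to use, the WT libraries carried 18.1 to 22.8 counts per kb of exon and the ING4-/- libraries at most 0.0853. Spread over the exons of all genes, that density would be 22.6% to 33.4% of the WT counts. Where 3 values of a genotype follow each other, they are in the order LT-HSC, ST-HSC, MPP. The density is called the background below, and WT values are set beside the count that it alone would give. It coincides with genotype, so in the deposited counts the 2 cannot be told apart. Ing4, the targeted gene, had 247, 162 and 247 counts in WT and 0, 24 and 76 in ING4-/- (the background would give 119, 121 and 96.3 in WT), and it was called lower (log2 fold change -4.49, SE 1.56, Benjamini-Hochberg adjusted p = 0.0373 in edgeR's quasi-likelihood test). That call was lost with the background subtracted (-4.24, adjusted p = 0.0862 in edgeR), with upper-quartile factors (-3.92, adjusted p = 0.0544 in edgeR) and with population as a block (-5.45, adjusted p = 0.0783 in edgeR). It was also lost without any 1 WT library or ING4-/- ST-HSCs (adjusted p 0.066 to 0.083 in edgeR). Of the exonic bases of Ing4, 34.9% overlap Gm44597 on the same strand. Of its 50-base stretches 33.8% also occur in other genes, so the source of the 24 and 76 counts is uncertain. The summed level of 12 stem and progenitor markers was 2447 to 3541 CPM (counts scaled to a common library size) in WT and 3229 to 4962 in ING4-/-. Cd48, whose product was gated out of all 3 populations, had 50, 154 and 376 counts in WT and 0, 1077 and 4300 in ING4-/-. The libraries labelled MPP held the most of it in both genotypes and go against the gate, followed by ING4-/- ST-HSCs. In bulk RNA, fewer cells that express a gene and less RNA of it per cell cannot be told apart.

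Comparing the 3 ING4-/- libraries with the 3 WT libraries, Keap1, Hmox1 and Gclm were called higher and no gene of the 10 was called lower. A call means an adjusted p under 0.05 and a log2 fold change over 1 in either direction, from edgeR's quasi-likelihood test adjusted by the Benjamini-Hochberg method over 31001 genes, and adjusted p below is from this test unless another is named. Of all genes tested, 7.98% were called higher and 56.7% lower. With population as a block, which pairs the libraries, Keap1 was the 1 gene of the 10 called, next to 6.45% of all genes called higher. The levels of 5 genes, Nfe2l2, Keap1, Hmox1, Gclm and Gsr, were higher in every ING4-/- library than in any WT library, against 12% of all genes tested and 35.9% of the 9673 genes that reached 10 counts in each library. Slc7a11 alone was lower in every ING4-/- library than in any WT library, as were 62.9% of genes tested. The median log2 fold change of the 10 genes was 0.75, next to -6.85 over all genes tested.

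That difference of medians depends on which genes are counted. Among genes that reached 10 counts in each library (the count minimum), 9 of the 10 remained, since Slc7a11 did not pass, and Hmox1 was the 1 gene called higher, while 8.3% of the genes so filtered were called higher and 9.68% lower. There the median of the 9 was 0.29, next to 0.020 over all filtered genes. When the background was subtracted from every count, Hmox1 was again the 1 gene of 10 called higher, with 5.61% of genes called higher and 38.7% lower, and the median was 0.30 next to -0.93. Fits with other size factors also moved all genes together, the median by -0.32 with median-of-ratios factors and by 0.50 with upper-quartile factors.

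**Figure D1:**
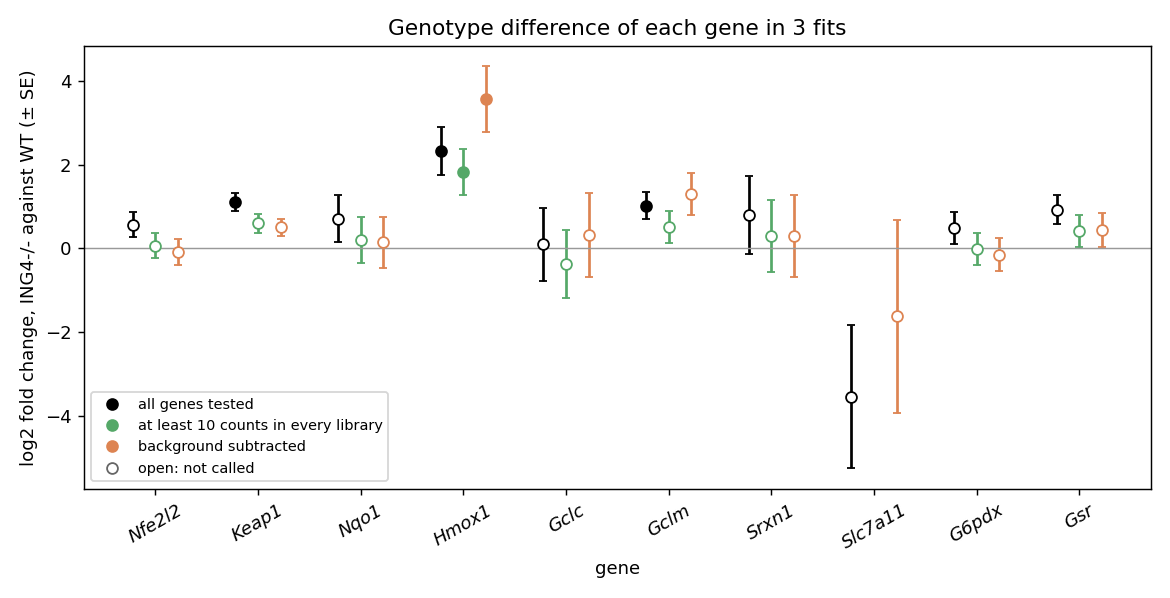
Log2 fold change of each gene (ING4-/- against WT, 3 libraries each, bars are 1 SE) from the fit of all genes tested, from genes above the count minimum and from background-subtracted counts. Filled points were called. Hmox1 was called in each of the 3 fits, Keap1 and Gclm only in the first, and Slc7a11 has no value under the minimum of 10 counts.

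Nfe2l2, which encodes the transcription factor Nrf2 (ENSMUSG00000015839, minus strand of chromosome 2, 75675513 to 75704641 in GRCm38), had 1009, 566 and 950 counts in WT and 5289, 3369 and 3715 in ING4-/-. Scaled for library size by TMM, these were 106, 60.9 and 93.2 CPM in WT and 169, 107 and 110 in ING4-/-. Every ING4-/- library was above every WT library, though the lowest ING4-/- library and the highest WT library were separated by less than 1 CPM. The log2 fold change was 0.56 (SE 0.31) with an adjusted p of 0.149 in edgeR, so the difference was not called. Of 18 other settings it was called in 1, with upper-quartile factors (1.16, adjusted p = 0.0120 in edgeR). With 1 library left out the log2 fold change ranged from 0.32 to 0.73. With the background subtracted it was -0.088 (SE 0.32), and the WT counts were 6.55 to 13.8 times the background.

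Keap1, the adaptor that marks Nrf2 for breakdown (ENSMUSG00000003308, minus strand of chromosome 9, 21229730 to 21239361), had 844, 624 and 807 counts in WT and 5451, 4845 and 6084 in ING4-/-. Its level was 78.4 ± 10.9 CPM in WT and 169 ± 13.8 CPM in ING4-/- (SD, n = 3 populations), without overlap. It was called higher, with a log2 fold change of 1.11 (SE 0.21) and an adjusted p of 0.00215 in edgeR. Of the 10 genes it varied least among ING4-/- populations, with a coefficient of variation of 8.19%. The call was kept in 9 of 18 other settings and was lost among others with the count minimum (0.60, SE 0.22, adjusted p = 0.0907 in edgeR) and with the background subtracted (0.50, SE 0.21, adjusted p = 0.0962 in edgeR). Without the WT ST-HSC library it was 0.96 and without the WT MPP library 0.99, under the limit of 1. Of its exonic bases, 10.9% lie opposite Gm16754, and whether the counting used strand is not given in the sources used here.

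The ratio of Nfe2l2 to Keap1 within a library does not depend on how libraries are scaled. Per kb of exon it was 1.48, 1.12 and 1.46 in WT and 1.20, 0.860 and 0.755 in ING4-/-. In each population the ING4-/- library had the lower ratio, but the value of ING4-/- LT-HSCs was above that of WT ST-HSCs, so the genotypes overlapped. The mean log2 ratio was lower by 0.54 in ING4-/- (mean -0.12 against 0.42), and the two-sided exact permutation test gave p = 0.200, where 0.100 is the smallest that 3 against 3 libraries allow. With the libraries paired by population the ratio was lower in 3 of 3 pairs, and the exact permutation of signs gave p = 0.25, the smallest that 3 pairs allow. This ratio was chosen after the values were seen.

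Hmox1, the inducible heme oxygenase that opens heme into biliverdin, iron and carbon monoxide (ENSMUSG00000005413, plus strand of chromosome 8, 75093621 to 75100589), had 50, 50 and 47 counts in WT and 1285, 557 and 605 in ING4-/-. The background alone would give 39.2, 39.8 and 31.7 counts in the WT libraries, so the WT counts were 1.27, 1.26 and 1.48 times it. The WT level was 5.09 ± 0.416 CPM and the ING4-/- level 25.5 ± 13.5 CPM (SD, n = 3 populations), with no overlap and the highest value in ING4-/- LT-HSCs. The log2 fold change of 2.32 (SE 0.57) was the largest increase of the 10 genes, with an adjusted p of 0.00813 in edgeR. With the background subtracted it was 3.57 (SE 0.79), which rests on the few WT counts above the background. The direction held in all 18 other settings and the call in 15 of them, lost with population as a block (2.20, adjusted p = 0.0771 in edgeR), without the WT ST-HSC library (2.34, adjusted p = 0.0501 in edgeR) and with background subtraction and the block together (3.43, adjusted p = 0.0948 in edgeR).

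Macrophages and erythroid precursors also use Hmox1, so their markers are set beside it. The 12 macrophage markers summed to 168 to 175 CPM in WT, of which the background would give 74.8 to 103, and to 32.6 to 72.2 CPM in ING4-/-, where Csf1r, Marco and Timd4 had 0 counts in every library and none of the 12 was higher in all ING4-/- libraries than in WT. The 11 erythroid markers found summed to 88.1 to 142 CPM in WT and 116 to 247 CPM in ING4-/-, with Alas2 at 0 in every ING4-/- library and 4 of 11 without overlap and higher. The 12 granulocyte markers summed to 127 to 341 CPM in WT and 368 to 663 CPM in ING4-/-, without overlap. The part of these cells in the Hmox1 difference was not tested.

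Nqo1, a quinone reductase that is the standard readout of Nrf2 activity (ENSMUSG00000003849, minus strand of chromosome 8, 107388225 to 107403206), had 156, 203 and 212 counts in WT and 429, 1694 and 983 in ING4-/-. These were 16.4, 21.9 and 20.8 CPM in WT and 13.7, 53.6 and 29.0 CPM in ING4-/-. The genotypes overlapped, since ING4-/- LT-HSCs were the lowest of the 6 libraries and ING4-/- ST-HSCs the highest. It was not called, with a log2 fold change of 0.70 (SE 0.56, adjusted p = 0.315 in edgeR). Of 18 other settings it was called higher in 1, without ING4-/- LT-HSCs (1.09, adjusted p = 0.0499 in edgeR). Without ING4-/- ST-HSCs it was 0.14 (adjusted p = 0.828 in edgeR).

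Srxn1, sulfiredoxin, which restores overoxidized peroxiredoxins (ENSMUSG00000032802, plus strand of chromosome 2, 152105516 to 152111376), had 581, 212 and 218 counts in WT and 4367, 300 and 1179 in ING4-/-. In both genotypes the LT-HSC library was the highest, at 61.2 CPM in WT and 140 CPM in ING4-/-, and the other WT libraries lay at 22.8 and 21.4 CPM. ING4-/- ST-HSCs, at 9.49 CPM, were below all WT libraries, so the genotypes overlapped. Its log2 fold change of 0.80 (SE 0.94) was within the spread of the libraries (adjusted p = 0.489 in edgeR), and without ING4-/- LT-HSCs it was -0.64.

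**Figure D2:**
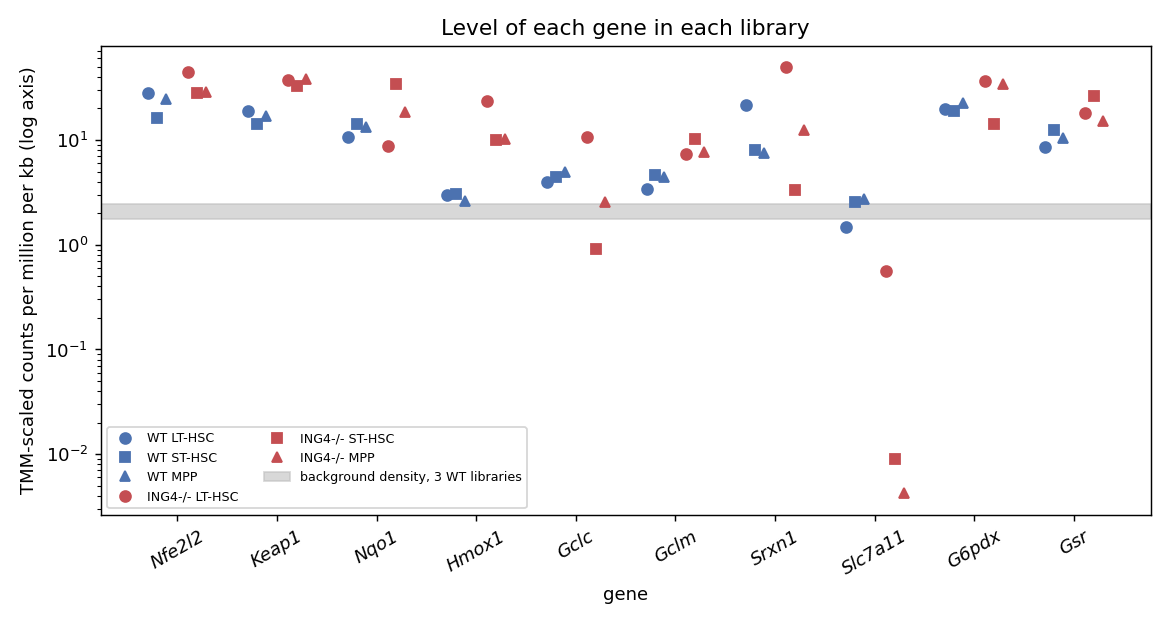
Level of each gene in each library, as TMM-scaled CPM per kb of exon on a log axis, with WT in blue and ING4-/- in red and 1 point per library. The gray band spans the background of the WT libraries, from 1.78 to 2.45 on this scale. WT Hmox1 and Slc7a11 lie in or near the band, and Slc7a11 in ING4-/- ST-HSCs and MPPs lies far under it.

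Glutathione is made in 2 steps, of which the first, joining glutamate to cysteine, is carried out by a catalytic subunit (Gclc) and a modifier subunit (Gclm). Gclc (ENSMUSG00000032350, plus strand of chromosome 9, 77754535 to 77794485) had 141, 154 and 190 counts in WT and 1265, 108 and 330 in ING4-/-. The WT libraries were close together at 14.8, 16.6 and 18.6 CPM, and the ING4-/- libraries were spread 11.8-fold, from 3.42 CPM in ST-HSCs and 9.73 in MPPs to 40.4 in LT-HSCs. ING4-/- LT-HSCs were thus above all WT libraries and the other ING4-/- libraries below all of them. Over the 3 populations its log2 fold change was 0.097 (SE 0.87, adjusted p = 0.933 in edgeR), and without ING4-/- LT-HSCs it was -1.32. The WT counts were 1.67 to 2.79 times the background.

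Gclm (ENSMUSG00000028124, plus strand of chromosome 3, 122245557 to 122270732) had 202, 269 and 284 counts in WT and 1441, 2020 and 1623 in ING4-/-. Its level was 26.0 ± 4.16 CPM in WT and 52.6 ± 9.82 CPM in ING4-/- (SD, n = 3 populations), without overlap, and unlike Gclc it was similar in the 3 ING4-/- libraries. It was called higher, just past both limits, with a log2 fold change of 1.01 (SE 0.33) and an adjusted p of 0.0275 in edgeR. The call was kept in 5 of 18 other settings, and was lost with population as a block (1.01, adjusted p = 0.0777 in edgeR), with the count minimum (0.51, adjusted p = 0.361 in edgeR) and without any 1 of the 3 WT libraries (adjusted p 0.0848 to 0.113 in edgeR) or ING4-/- ST-HSCs (0.88, adjusted p = 0.0767 in edgeR). Over all these settings the log2 fold change ranged from 0.51 to 1.61. The WT counts were 1.43 to 2.49 times the background, and 4.58% of 50-base stretches of its exons also occur in other genes.

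Per kb of exon, the ratio of Gclc to Gclm within a library was 1.17, 0.956 and 1.12 in WT. In ING4-/- it was 1.47, 0.0893 and 0.340. In the deposited counts the WT libraries held near-equal levels of both subunits, and the ING4-/- libraries lay above and below them. WT counts were 1.67 to 2.79 times the background for Gclc and 1.43 to 2.49 times for Gclm. The background is equal per kb, so it moves this WT ratio toward 1. The mean log2 ratio was lower by 1.60 in ING4-/-, with p = 0.4 in the two-sided exact permutation test, whose smallest value is again 0.100. With the background subtracted the ratios were 1.56, 0.902 and 1.20 in WT and, in ING4-/- LT-HSCs, 1.47. The value of ING4-/- LT-HSCs then lay within the WT range and no longer above it. Paired by population the ratio was lower in ING4-/- in 2 of 3 pairs, with p = 0.5 in the exact permutation of signs. With the background subtracted it was lower in 3 of 3 (exact p = 0.25). This ratio too was chosen after the values were seen.

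Slc7a11, the cystine importer xCT, which supplies cysteine for glutathione (ENSMUSG00000027737, minus strand of chromosome 3, 49892526 to 50443614), had 196, 333 and 390 counts in WT and 247, 4 and 2 in ING4-/-. Its 13922 exonic bases make it the longest of the 10 genes, and the background alone would give 312, 317 and 252 counts in the WT libraries, so those counts were 0.628, 1.05 and 1.55 times the background. The ING4-/- libraries were all lower than the WT libraries, at 7.89, 0.126 and 0.0590 CPM against 20.6, 35.9 and 38.3 CPM. It was not called, at a log2 fold change of -3.55 (SE 1.72, adjusted p = 0.110 in edgeR). Without ING4-/- LT-HSCs it was called lower (-8.29, adjusted p = 7.06e-04 in edgeR). After background subtraction the log2 ratio in LT-HSCs turned from -1.38 to 6.28, because no WT count was left there.

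Oxidized glutathione is returned to its reduced form by glutathione reductase (Gsr) with NADPH, much of which comes from glucose-6-phosphate dehydrogenase (G6pdx), the first enzyme of the pentose phosphate pathway. Gsr (ENSMUSG00000031584, plus strand of chromosome 8, 33652523 to 33698163) had 225, 322 and 290 counts in WT and 1549, 2313 and 1424 in ING4-/-. Its level was 28.9 ± 5.50 CPM in WT and 54.9 ± 16.3 CPM in ING4-/- (SD, n = 3 populations) without overlap. It was short of both limits, with a log2 fold change of 0.92 (SE 0.35, adjusted p = 0.0521 in edgeR). It was called in 4 of 18 other settings, among them without ING4-/- LT-HSCs (1.02, adjusted p = 0.0438 in edgeR) and without ING4-/- MPPs (1.11, adjusted p = 0.0399 in edgeR). With the background subtracted it was 0.43 (adjusted p = 0.454 in edgeR) and with the count minimum 0.41 (adjusted p = 0.486 in edgeR). Without ING4-/- ST-HSCs it was 0.69 (adjusted p = 0.153 in edgeR).

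G6pdx (ENSMUSG00000031400, minus strand of chromosome X, 74409483 to 74429194) had 575, 536 and 712 counts in WT and 3561, 1370 and 3585 in ING4-/-. Its WT level was even, at 62.7 ± 6.35 CPM, and in ING4-/- it was 114, 43.3 and 106 CPM. ING4-/- ST-HSCs were below all WT libraries and the other ING4-/- libraries above, so the genotypes overlapped. Its log2 fold change was 0.48 (SE 0.39, adjusted p = 0.318 in edgeR). Without ING4-/- ST-HSCs it was 0.83 (adjusted p = 0.0244 in edgeR), under the limit of 1, and without ING4-/- LT-HSCs 0.28. Of 18 other settings G6pdx was called in 1, with upper-quartile factors (1.07, adjusted p = 0.0385 in edgeR). Its counts are uncertain, since 13.6% of its exonic bases lie opposite Ikbkg and 16.9% of its 50-base stretches also occur in G6pd2 or Ikbkg.

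Compared per length, which allows genes to be ranked, Nfe2l2 was the highest of the 10 in WT at 22.9 ± 6.15 CPM per kb, and the 3 WT libraries of Nfe2l2, G6pdx and Keap1 overlapped between neighbours. Nqo1, Srxn1 and Gsr came next, at 12.7, 12.5 and 10.5 CPM per kb, with overlap between neighbours and a gap to Gclc below. Nqo1 did not overlap with Keap1, whereas Srxn1, which spanned 7.58 to 21.7, did. Gclc and Gclm followed at 4.43 and 4.14 CPM per kb, and Hmox1 and Slc7a11 were last at 2.91 and 2.27. In ING4-/- Keap1 was the highest at 36.0 ± 2.95 CPM per kb, followed by Nfe2l2 at 33.8 ± 9.28. From there down to Gclc at 4.74 ± 5.26 every neighbour overlapped in the order, and only Slc7a11, at 0.193 CPM per kb, stood apart.

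Within the populations the ING4-/- to WT ratio was not the same for each gene. Keap1 had log2 ratios of 0.97, 1.19 and 1.18, each from 1 library per genotype, and the widest of its 95% exact binomial intervals was 1.07 to 1.31 in ST-HSCs. Hmox1 had log2 ratios of 2.94, 1.69 and 1.93, Gclm 1.11, 1.14 and 0.78, and Gsr 1.06, 1.08 and 0.56. With the background subtracted those of Gclm were 2.05, 1.28 and 0.80, and those of Hmox1 4.30, 3.01 and 2.83. Those of Keap1 were then 0.38, 0.51 and 0.62, and those of Gsr 0.75, 0.44 and 0.12. For these 4 genes and Nfe2l2 (0.67, 0.81 and 0.23) the ratio was above 0 in all 3 populations. Gclc had a log2 ratio of 1.44 in LT-HSCs (interval 1.19 to 1.71). In ST-HSCs it was -2.25 (-2.65 to -1.92), and in MPPs -0.93 (-1.20 to -0.67). Srxn1 (1.19, -1.26 and 0.70) and G6pdx (0.91, -0.41 and 0.60) were higher in LT-HSCs and MPPs and lower in ST-HSCs. The median over the 10 genes was 1.01, 0.94 and 0.58, next to 0.55, 0.59 and 0.37 over genes above the count minimum. Nqo1 had log2 ratios of -0.26, 1.29 and 0.48, where the counting interval in LT-HSCs (-0.53 to 0.012) included 0 and upper-quartile factors gave 0.34. The intervals cover counting error only, and reads without molecular identifiers are not independent molecules. With the background subtracted, the log2 ratio of Nfe2l2 in MPPs was -0.38.

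**Figure D3:**
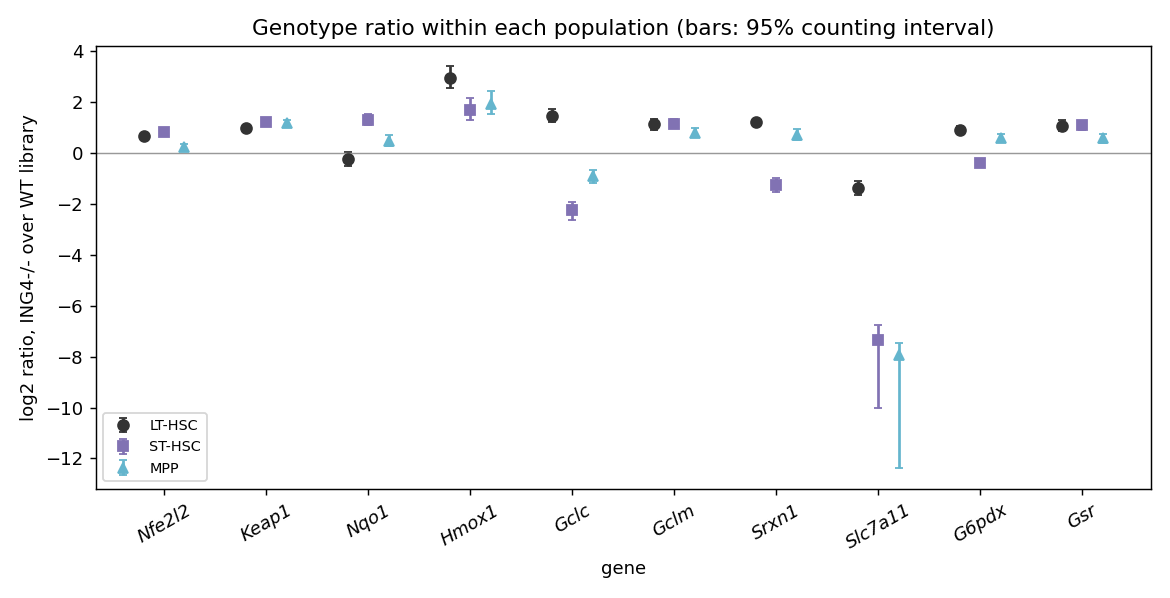
Log2 ratio of the ING4-/- library over the WT library for each gene in LT-HSCs, ST-HSCs and MPPs, with 95% exact binomial counting intervals and no replicate behind any point. Keap1 lies between 0.97 and 1.19 in the 3 populations, Gclc goes from 1.44 to -2.25, and Slc7a11 lies at -7.34 in ST-HSCs and -7.96 in MPPs.

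In ING4-/- 6 of the 10 genes were highest in LT-HSCs (Nfe2l2, Hmox1, Gclc, Srxn1, Slc7a11 and G6pdx), as were 34.8% of genes above the count minimum. In WT 3 of the 10 were highest in LT-HSCs (Nfe2l2, Keap1 and Srxn1), as were 30.01% of such genes. The coefficient of variation over the 3 populations had a median over the 10 genes of 15.3% in WT and 48.4% in ING4-/-, next to 21.9% and 36.2% over those genes. In ING4-/- it was 167% for Slc7a11, 113% for Srxn1 and 111% for Gclc, from 30.3%, 64.3% and 11.4% in WT. Nqo1 went from 14.6% to 62.7%, Hmox1 from 8.17% to 52.8% and G6pdx from 10.1% to 44.0%. Keap1 went from 13.9% to 8.19%, Nfe2l2 from 26.9% to 27.4%, Gclm from 16.0% to 18.7% and Gsr from 19.0% to 29.6%. The WT values include the background and are not given with it subtracted. WT counts were 1.26 to 1.48 times the background for Hmox1, 1.67 to 2.79 for Gclc and 0.628 to 1.55 for Slc7a11. Whether the spread differed between genotypes was not tested.

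MPPs were compared with LT-HSCs over both genotypes, with genotype in the model and 2 libraries for each population. By edgeR, 0 of the 10 genes and 0% of all genes tested were called, while 561 genes had an unadjusted p under 0.05. DESeq2 called 473 genes and 0 of the 10. Srxn1 was the 1 gene of the 10 with an unadjusted p under 0.05, with a log2 fold change of -1.82 (SE 0.71, adjusted p = 1.00 in edgeR), lower in MPPs than in LT-HSCs. Nfe2l2 differed by -0.40 (SE 0.28) and Keap1 by -0.063 (SE 0.24). The median of the 10 was -0.23, next to 0.027 over all genes.

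The wider pathway was described by 4 lists of other genes. Of 18 partners and regulators of Nrf2, 4 were called higher and 3 lower, and their median log2 fold change was -0.18. Over all genes tested 7.98% were called higher and 56.7% lower, with a median of -6.85. Rbx1, the RING subunit of the Keap1 ligase, rose from 129 ± 8.56 to 398 ± 41.2 CPM (SD, n = 3 populations), a log2 fold change of 1.62. Park7, which encodes the redox sensor DJ-1, rose by 1.49 on the log2 scale, and Dpp3, a peptidase that competes with Nrf2 for Keap1, by 1.09. The transcription repressor gene Bach2 fell, with 379, 377 and 222 counts in WT and 67, 0 and 54 in ING4-/-, as did the acetyltransferase gene Ep300 (687, 737 and 942 against 244, 54 and 857). The background alone would give 223, 226 and 180 counts of Bach2 in WT, and 320, 325 and 258 of Ep300. The call of Bach2 was lost with the background subtracted (log2 fold change -4.14) and with population as a block (log2 fold change -5.46, adjusted p = 0.0636 in edgeR). Nfe2l3, a relative of Nfe2l2, had 48, 30 and 32 counts in WT and 0 in each ING4-/- library, but the background alone would give 66.6, 67.6 and 53.8 counts in WT. With the count minimum, 1 of 16 partners was called higher (Rbx1) and 2 lower (Ep300 and Crebbp), and with the background subtracted 0 of 17 higher and the same 2 lower. Over all genes 8.3% were called higher and 9.68% lower with the minimum, and 5.61% and 38.7% with the background subtracted.

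Of 22 further target genes of Nrf2, 11 were called higher and 2 lower (7.98% and 56.7% of all genes), with a median log2 fold change of 1.17. The largest increases were in glutathione transferases, with Gsto1 at 76.0 ± 17.1 CPM in WT and 304 ± 45.3 CPM in ING4-/- (SD, n = 3 populations) and a log2 fold change of 2.00. Mgst1, a microsomal transferase, rose by 1.91 and Gstm5 by 1.88 on the log2 scale. Abcc1, an exporter of glutathione conjugates, fell by 1.28 on the log2 scale, with 1896, 1375 and 1653 counts in WT and 1242, 2977 and 2592 in the deeper ING4-/- libraries. Aldh3a1, an aldehyde dehydrogenase, had 108, 34 and 92 counts in WT and 0 in each ING4-/- library. Against a floor of 3 counts per library this is 86.2-fold lower if every WT count is taken as its own. The background alone would give 43.5, 44.2 and 35.2 counts in WT, so 86.2 is not a lower bound. With the count minimum 4 of 17 were called higher and 1 lower (median 0.99), next to 8.3% and 9.68% of all genes so filtered (median 0.020). With the background subtracted 2 of 21 were called higher, near the 5.61% over all genes, and 1 lower, next to 38.7%. The median was then 0.68, next to -0.93 over all genes.

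Of 20 genes of glutathione synthesis and turnover, 19 were tested, as Chac1 had no counts in any library, and 4 were called higher and 2 lower (7.98% and 56.7% of all genes), with a median log2 fold change of 0.34. Glrx5, a glutaredoxin of iron-sulfur cluster assembly, had 46, 75 and 166 counts in WT and 1307, 4468 and 1991 in ING4-/-, a log2 fold change of 3.05 (SE 0.67). Esd, which hydrolyses S-formylglutathione, rose by 1.77 and Glrx3, a monothiol glutaredoxin, by 1.51. Cth, the cystathionine lyase that makes cysteine, had 92, 170 and 71 counts in WT and 0 in each ING4-/- library. Against the same floor this is 125-fold lower if every WT count is taken as its own. The background alone would give 62.6, 63.5 and 50.5 counts in WT, so 125 is not a lower bound. Ggt1, which starts the breakdown of glutathione outside the cell, had 8, 38 and 27 counts in WT, all under the background of 61.8 to 77.6, and 0, 0 and 1 in ING4-/-. With the count minimum 3 of 12 were called higher and 0 lower (median 0.38), next to 8.3% and 9.68% of all genes so filtered (median 0.020). With the background subtracted 2 of 15 were called higher and 1 lower (median 0.59), next to 5.61% and 38.7% of all genes (median -0.93).

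Of 13 enzymes that make NADPH or feed the pentose phosphate pathway, 6 were called higher and 0 lower (7.98% and 56.7% of all genes), with a median log2 fold change of 0.87. Pgls, the lactonase that follows G6pdx, rose by 1.64 and Taldo1, transaldolase, by 1.45 on the log2 scale. H6pd, the hexose-6-phosphate dehydrogenase of the endoplasmic reticulum, was called at a log2 fold change of 1.68, but its groups overlapped, since it was at 21.3 CPM in WT ST-HSCs and 20.4 CPM in ING4-/- ST-HSCs. Its count of 100 in WT LT-HSCs was under the background of 117, and its call was lost with population as a block (adjusted p = 0.141 in edgeR). With the count minimum 1 of 13 was called higher (Pgls), about the 8.3% over all genes so filtered, with a median of 0.37 next to 0.020. With the background subtracted 0 of 13 were called, next to 5.61% higher and 38.7% lower over all genes. The median was then 0.32, next to -0.93. Over the 4 lists, leaving out 1 library ended the call of 7 named genes. Dpp3 lost it without WT LT-HSCs, WT ST-HSCs or ING4-/- LT-HSCs (log2 fold change 0.79 to 1.00), and Abcc1 without ING4-/- LT-HSCs (-0.97). Mgst1 lost it without WT LT-HSCs or WT ST-HSCs (adjusted p 0.0598 and 0.0749 in edgeR) and Taldo1 without ING4-/- MPPs (adjusted p = 0.0566 in edgeR). Bach2 lost it without any 1 WT library or ING4-/- MPPs (adjusted p 0.0504 to 0.0697 in edgeR), and Ep300 without WT ST-HSCs, WT MPPs or ING4-/- LT-HSCs (adjusted p 0.0502 to 0.0615 in edgeR). H6pd lost it without any 1 library except ING4-/- ST-HSCs (adjusted p 0.0807 to 0.137 in edgeR).

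**Figure D4:**
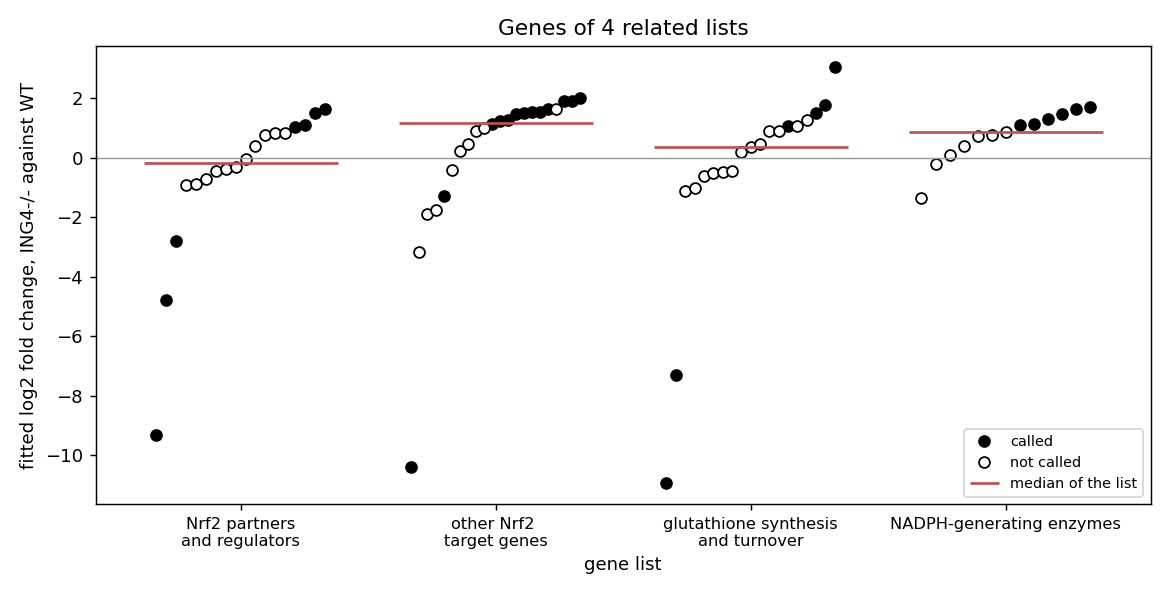
Fitted log2 fold change (ING4-/- against WT) of each gene tested in 4 related lists, 1 point per gene, ordered by value within a list, filled where called, with the median of the list as a red line. The lowest points are genes with 0 or 1 counts in ING4-/- libraries, whose fitted values depend on the prior count and are not fold changes to read off. The median was -0.18, 1.17, 0.34 and 0.87 from left to right.

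For Nfe2l2, the genes with the most similar pattern over the 6 libraries, by Pearson correlation of log2 CPM among 9672 genes, were Blcap (0.997), Socs3 (0.994) and Lrrc14 (0.992). For Gclc they were Snapc3, Capn3 and Cyp4f13 (0.992 each). The last 3 shared the high count in ING4-/- LT-HSCs and the low count in ING4-/- ST-HSCs, as in Snapc3 with 1627 and 95 counts. These points share their libraries and the difference in depth between the genotypes, and the correlations are given as a description.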

How the data were processed

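RNA-seq was analysed for 6 libraries, 1 for each of 3 sorted populations of WT and ING4-/- mice, grouped by the sample labels. The authors deposited raw counts of reads per gene for each library, with no normalization. Per the submitters' processing notes the build was mm10, while the aligner, the counter, the annotation release and the strand setting are not given in the sources used here. Of 49315 gene identifiers, 48970 were found in GENCODE's GRCm38 annotation, the source of symbols, positions, exonic bases and overlaps. Every column of the tables belonged to a sample of the series, so 0 were set aside.

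Counts were filtered (filterByExpr on genotype), scaled by TMM and fitted with the quasi-likelihood test of edgeR 4.0.16 in R 4.3.3, first with genotype alone and, for MPPs against LT-HSCs, with genotype and population. Adjusted p-values are Benjamini-Hochberg over all genes tested, and SE is the absolute log2 fold change over the square root of F. CPM used TMM library sizes, and log2 ratios a prior count of 2. A count of 0 allows up to 3 counts, a CPM of 0.320 to 0.383 in WT and 0.0765 to 0.0843 in ING4-/- before TMM scaling. The fits were tested on simulated counts. The background, measured on 1427 receptor genes, was multiplied by exonic length and subtracted, with negative values set to 0.

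Members and lists were chosen with earlier results of these data known. Named genes were the 10 genes, Ing4, the sort markers, up to 3 called genes at either end of each list and the 3 genes most like Nfe2l2 and Gclc. Crebbp, Chac1 and marker genes at 0 were named after their values were seen. Alternatives were other size factors, DESeq2 1.42.0, other filters and limits, a population block, libraries left out, protein-coding genes alone and background subtraction. Background subtraction together with the block was added after the data were seen. The deviations of the 2 libraries of a population from their genotype means were correlated over 9673 genes (r = 0.143, 0.110 and 0.121 in LT-HSCs, ST-HSCs and MPPs), so population was taken as pairing the libraries. Tables were made with Python 3.11.15, pandas 2.3.3, numpy 2.4.6 and scipy 1.17.1.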

Additional observations from a re-analysis of the deposited data

Results flagged for a closer look

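Of the 10 genes, 3 had ING4-/- to WT ratios on both sides of 0 in different populations, with counting intervals clear of 0 on each side. The difference between the highest and the lowest log2 ratio was 3.69 for Gclc (higher in LT-HSCs, lower in ST-HSCs and MPPs), 2.45 for Srxn1 and 1.32 for G6pdx (both higher in LT-HSCs and MPPs, lower in ST-HSCs). With 1 library for each population and genotype, these differences were not tested. For G6pdx in ST-HSCs the ratio turned to 0.21 with upper-quartile factors.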

How the results depend on the processing

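The number of the 10 genes called between genotypes was 3 and depended on the setting: 6 with upper-quartile factors, 1 with median-of-ratios factors, DESeq2, the minimum of 10 counts, the population block (Keap1), background subtraction, protein-coding genes or both MPP libraries left out, 0 with background subtraction and the block, and 0 (without WT ST-HSCs) to 6 (without ING4-/- LT-HSCs) with 1 library left out. Genes called in all fell from 20041 to 1739 with the minimum, 8754 with background subtraction, 8613 among protein-coding genes and 349 with subtraction and the block, which was chosen after seeing the data. Of the calls, 12.4% were higher, but 46.2% with the minimum, 51.6% with subtraction and the block, 21.0% with upper-quartile factors, 6.91% with median-of-ratios factors and 6.04% in DESeq2. For MPPs against LT-HSCs, 473 genes were called by DESeq2, 2 with the minimum and 0 otherwise. Gclc turned to -0.22 with median-of-ratios factors, -0.20 in DESeq2, -0.38 with the minimum, -0.63 with the block, -0.23 among protein-coding genes, -1.38 without LT-HSCs and -0.46 with subtraction and the block, and ranged from -1.32 to 0.61 with 1 library left out. Srxn1 ranged from -0.64 to 1.48 so, and was -0.22 with subtraction and the block. Background subtraction turned Nfe2l2 to -0.088 and G6pdx to -0.15, and with the block Nfe2l2 was -0.091, Nqo1 -0.032 and G6pdx -0.28, while the minimum turned G6pdx to -0.016. Within populations subtraction turned Nfe2l2 (-0.38), Nqo1 (-0.035) and G6pdx (-0.0028) in MPPs and Slc7a11 (6.28) in LT-HSCs, and upper-quartile factors turned G6pdx in ST-HSCs (0.21) and Nqo1 in LT-HSCs (0.34). The median of the Nrf2 partners was 0.41 with upper-quartile factors, 0.063 with subtraction and -0.27 to 0.038 with 1 library left out. The median of the glutathione list was -0.083 with median-of-ratios factors, -0.065 in DESeq2, -0.41 with the block, -0.030 among protein-coding genes, -0.026 without LT-HSCs and -0.038 to 0.60 with 1 library left out. Leaving out a library that leaves 2 against 3 also changes the genes tested, and otherwise the cause was not tested. Of the fitted log2 fold changes of named genes, 424 values kept direction and side of the threshold, 108 lost the call, 9 gained it and 16 reversed. That tally leaves out the ratios within populations and the medians of the lists. Counts were few for Slc7a11 in ING4-/- ST-HSCs and MPPs (4 and 2) and for Hmox1 in WT (47 to 50).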
